A study of Rattus norvegicus with 6 samples.

Results

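The genes described here build, crosslink and contract the actin cytoskeleton: actins, tropomyosins, calponins, non-muscle and smooth muscle myosins, filamins and their partners, with Srf, the transcription factor that drives many of them. They were chosen by name, with earlier results of these data known, as a list of 40 symbols. Of these, 39 matched 1 gene each among the 32623 genes of the deposited expression table. The expression of Palld is not analysed here. The RNA came from nucleus pulposus cells, which fill the soft centre of the intervertebral disc, grown out of the lumbar spine of male Sprague-Dawley rats 4 weeks old and used between the third and the fifth passage. A lentivirus was applied for 72 hours, delivering a hairpin against Bmal1 in 3 libraries (shBmal1) and a negative control in the other 3 (shNC), so all 6 libraries come from cultured, virus-treated cells. Whether the 3 libraries of each group were grown apart or came from different animals is not stated, so p-values here cover only library-to-library spread, which may be technical.

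The comparison asks how transcripts differ when Bmal1, the partner of CLOCK in the circadian transcription factor, is depleted. The Bmal1 transcript, listed as Arntl, had 8.38, 9.19 and 9.90 FPKM (fragments scaled by gene length and library size, the authors' unit) for shNC and 0.716, 1.39 and 0.690 FPKM for shBmal1, lower in each knockdown library and at 9.55% of control by scaled counts. The shNC libraries held 44043803 to 49783710 counts and the shBmal1 libraries 8773762 to 11679587, a 4.44-fold difference in the mean, and the share of mitochondrial rRNA was 19.3-fold higher in shBmal1. Depth, RNA composition and hairpin cannot be told apart in this design. Of the nucleus pulposus and notochord markers, Tbxt, Noto and Shh had no count in any library, while Pax1 and Acan had counts in every library. The 13 such markers found summed to 329 to 337 FPKM in shNC and 90.4 to 108.5 FPKM in shBmal1. Most of the shNC sum was Pax1 and Acan. In shBmal1 the highest means were those of Pax1 (29.9 FPKM), Foxf1 (29.5 FPKM) and Krt8 (17.4 FPKM), with Acan at 4.68 FPKM. Of the 10 tested, 4 fell (Pax1, Acan, Col2a1 and Krt8), 2 rose (Foxf1 and Ca3) and 4 did not pass, among them Sox9 at a log2 fold change of −0.04. The share that fell, 40%, is near the 35.3% of all tested genes called lower. The share that rose is 20%, beside 36% of all tested genes.

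Actin monomers join into filaments that tropomyosin coats, tropomodulin caps, filamin and alpha-actinin crosslink, and myosin II pulls on. When monomers are used up by filament growth, the coactivators MRTF-A and MRTF-B leave the monomers, enter the nucleus and bind SRF, which then transcribes actin, calponin and related genes through a sequence called the CArG box. The same SRF also drives immediate-early genes such as Egr1 with another set of partners, the ternary complex factors (TCF). In disc cells kept in culture, these contractile genes are commonly read as a sign of a fibroblast-like or myofibroblast-like state.

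The CArG box, named here by its consensus of CC, 6 bases of A or T, and GG, was searched on both strands in RefSeq promoters (build GRCr8, 250 bases before to 50 after each gene start). Promoters were found for 34 of the 40 names, Palld among them, and those of Actb, Actn4, Tagln, Myl9, Myh11 and Lmod1 are not analysed here. An exact box was present for 4 of these 34 genes (11.8%), against 485 of 27457 genes in the whole promoter table (1.77%). The stretches below run from 140 to 41 bases before the start and are shown because the box is what links SRF to its targets; capitals mark the boxes. Srf itself carries 2 boxes, at 81 and 61 bases before its start (chr9:21923936-21924035, plus strand), Actg1 1 at 90 bases (chr10:106120992-106121091, minus strand), Cnn2 1 at 71 bases (chr7:10370353-10370452, minus strand), and Fhl2 1 before each of 2 starts, at 95 bases (chr9:52954581-52954680, minus strand) and 58 bases (chr9:52923367-52923466, minus strand).
Srf: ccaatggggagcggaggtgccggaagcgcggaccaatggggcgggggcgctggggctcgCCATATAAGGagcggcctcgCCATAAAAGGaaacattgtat
Actg1: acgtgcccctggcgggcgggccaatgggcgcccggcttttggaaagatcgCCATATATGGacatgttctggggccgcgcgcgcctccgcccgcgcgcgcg
Cnn2: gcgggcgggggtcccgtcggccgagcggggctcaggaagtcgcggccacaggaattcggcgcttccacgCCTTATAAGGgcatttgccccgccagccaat
Fhl2, first start: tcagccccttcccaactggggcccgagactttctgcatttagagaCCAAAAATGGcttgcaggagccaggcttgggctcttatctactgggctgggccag
Fhl2, other start: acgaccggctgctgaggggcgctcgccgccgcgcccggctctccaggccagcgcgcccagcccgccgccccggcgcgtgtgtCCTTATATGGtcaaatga

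The Acta2 promoter (chr1:241172544-241172643, minus strand) has no exact box in this window. After that result had been seen, a box with exactly 1 of the 6 inner bases G or C was also searched. Acta2 has 2 such boxes, at 134 and 84 bases before its start, and this looser form is present for 2 of the 34 genes (5.88%, Acta2 and Tpm3), against 8.68% of all genes of the promoter table.
Acta2: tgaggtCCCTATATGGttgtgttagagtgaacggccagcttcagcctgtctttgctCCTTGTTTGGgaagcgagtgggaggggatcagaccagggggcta

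Most of the contractile genes were lower after Bmal1 knockdown. All 39 passed the filter on low counts and entered the test over 14342 genes. In it 33 fell, 5 rose and 1 did not pass (edgeR quasi-likelihood test, Benjamini-Hochberg adjusted p under 0.05). Of the 5, only Des was still called higher with values rescaled to TPM, which total the same in each library, or with quantile-normalized FPKM. Both were taken as log2 after adding 1, which shrinks the changes of genes at low levels. The 33 that fell are 84.6% of the group, beside 35.3% of all tested genes called lower and 36% called higher. As the names were chosen with earlier results of these data known, this contrast is a description and not a test. Over all tested genes 5167 were called higher and 5066 lower, and with TPM 4065 and 6681. The 2 groups of libraries did not overlap in 33 genes with shBmal1 lower and in 5 with shBmal1 higher, beside 39.1% and 38.2% of all tested genes. The median log2 fold change of the group was −1.34, against −0.01 over all tested genes. Of those that fell, 25 were at least 2-fold lower (21.9% of all tested genes) and 11 at least 4-fold lower (8.35%). Transcript levels of bulk cultures do not separate fewer cells of a kind from less RNA per cell.

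Part of the group is among the most abundant genes of the cells, and the drop was visible in the composition of the libraries. Others are scarce, with Des ranked 12012th and Myh11 12347th by FPKM in shNC. Together the 39 genes took 2.82%, 2.90% and 2.82% of the counts of the shNC libraries. In shBmal1 they took 1.18%, 1.10% and 1.14%, a 2.50-fold difference in shares that also depend on the other genes of each library. The groups did not overlap, with p = 0.1 in an exact permutation test (two-sided), the lowest that 3 libraries against 3 can reach. Their share of the summed FPKM was 3.25 to 3.35% in shNC and 1.06 to 1.13% in shBmal1. Among the 100 genes with the highest FPKM, 7 were contractile genes in shNC and 1, Actb, in shBmal1. Of 2491 tested genes with a mean log2 CPM (counts scaled by library size) of at least 6 over the 6 libraries, 40.5% were called lower and the median was 0.08, while 26 of the 29 contractile genes at that level were lower, with a median of −1.34.

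**Figure D1:**
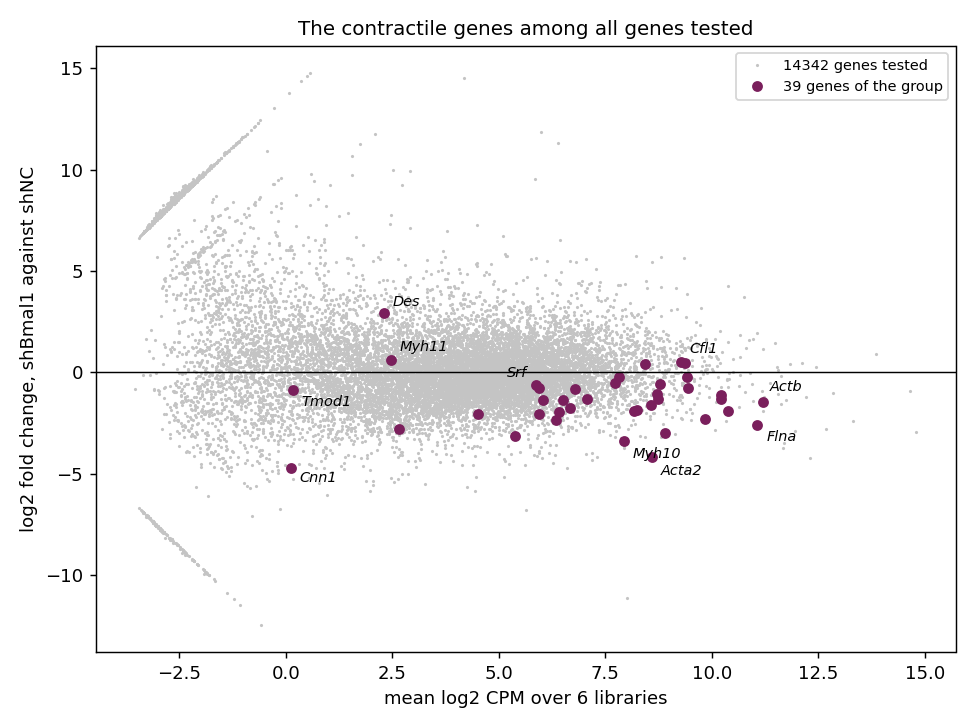
Log2 fold change (shBmal1 against shNC, vertical axis) against mean log2 CPM over the 6 libraries (horizontal axis) for the 14342 genes tested (grey) and the 39 contractile genes (purple). Most purple points lie below 0 at high abundance, from Acta2 at −4.16 up to Cfl1 at 0.52, while the grey points are centred near 0.

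The transcript of SRF, which is known to drive many genes of this group, fell moderately. Srf (ENSRNOG00000018232, chromosome 9, 16737642 to 16747225, forward strand; the sources used here do not name the build of these coordinates) stood at 18.8, 17.2 and 18.5 FPKM in shNC against 10.3, 13.4 and 10.6 FPKM in shBmal1. Every shBmal1 library was below every shNC library. The log2 fold change was −0.77 ± 0.11 (SE; adjusted p = 0.000429, edgeR), smaller in size than the median of the group.

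All 4 actins fell, and the smooth muscle isoforms fell furthest. Acta2, which encodes the smooth muscle alpha-actin that marks myofibroblasts (ENSRNOG00000058039, chromosome 1, 252537615 to 252550394, reverse strand), was at 1076, 1136 and 1053 FPKM in shNC and at 76.6, 73.5 and 46.4 FPKM in shBmal1. It ranked 34th of all genes by FPKM in shNC and 1329th in shBmal1. Its scaled counts fell from 1649 ± 70.7 to 92.0 ± 24.0 CPM (SD, n = 3 per group), or to 5.58% of control, with a log2 fold change of −4.16 ± 0.19 (SE; adjusted p = 7.01e-07, edgeR).

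Actg2, the enteric smooth muscle gamma-actin gene, was much scarcer, at 11.8, 10.1 and 10.2 FPKM in shNC and 1.83, 1.61 and 1.45 FPKM in shBmal1. It fell by 2.80 on the log2 scale, with only 25, 29 and 25 counts in shBmal1. The cytoplasmic actins of all cells fell less. Actb (chromosome 12, 13715843 to 13718841, forward strand) went from 2591, 2680 and 2493 FPKM in shNC to 1004, 978 and 1038 FPKM in shBmal1, a log2 fold change of −1.47 ± 0.06 (SE; adjusted p = 2.63e-07, edgeR). Actg1, cytoplasmic gamma-actin, went from 1390, 1416 and 1515 FPKM to 728, 624 and 817 FPKM, a log2 fold change of −1.11 ± 0.09 (SE; adjusted p = 1.77e-05, edgeR). In none of the 4 did any shBmal1 library reach a shNC library. Actin genes are close copies of each other, and reads may have been split or shared among them during counting, by a method the sources used here do not state.

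**Figure D2:**
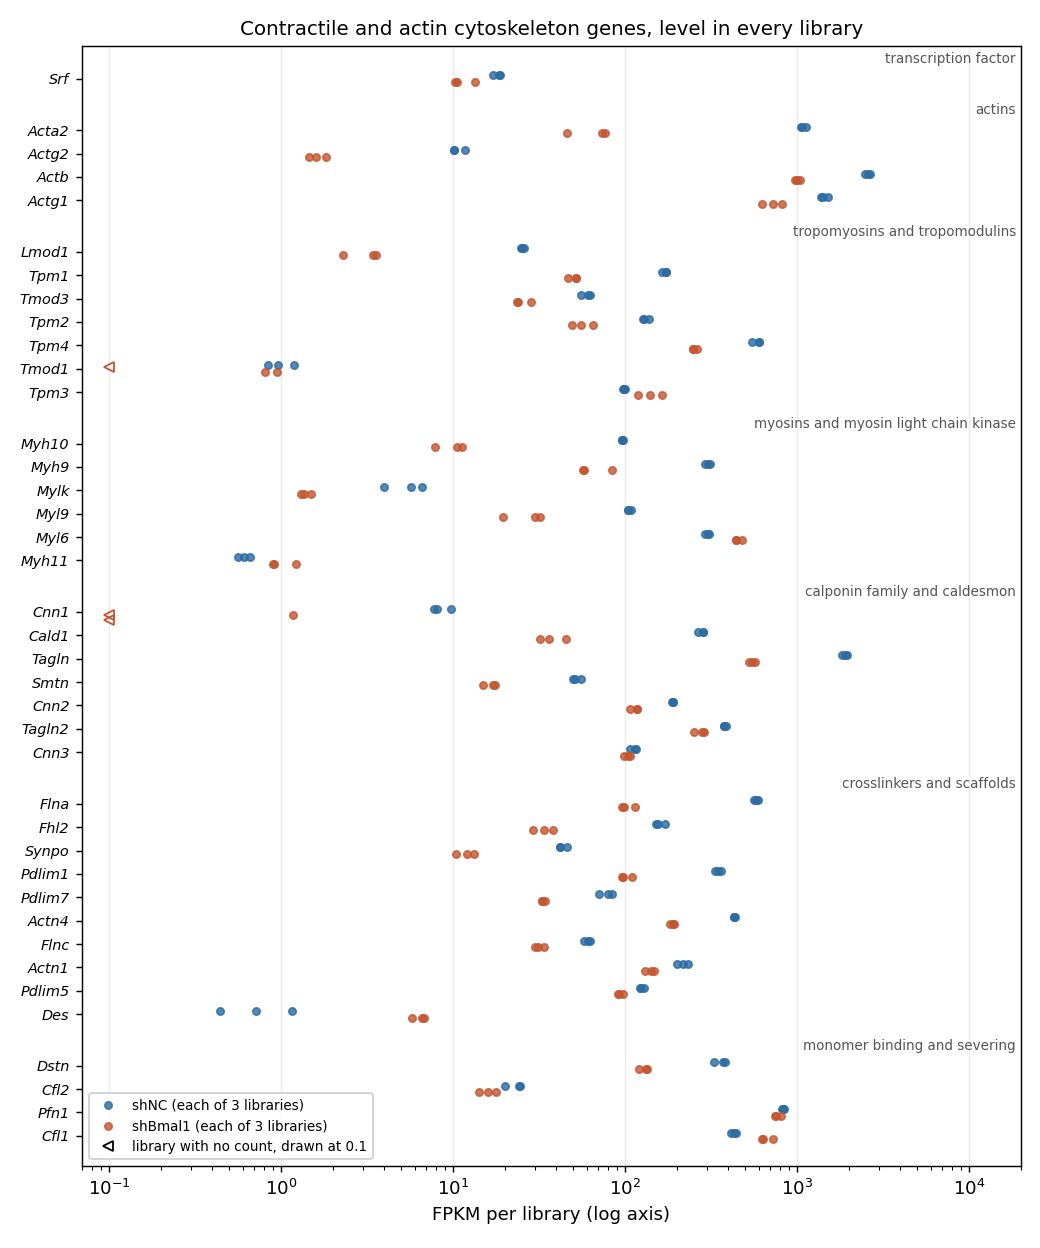
FPKM of each of the 39 genes in every library (log axis), grouped by role, with shNC in blue and shBmal1 in orange. The 2 colours overlap for Tmod1 only, orange lies to the right for Des, Myh11, Cfl1, Myl6 and Tpm3, and triangles mark the libraries in which Cnn1 or Tmod1 had no count.

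Among the tropomyosins, which coat actin filaments and set which proteins can bind them, 3 fell and 1 rose. Tpm1 was at 173, 174 and 166 FPKM in shNC and 51.9, 52.2 and 46.6 FPKM in shBmal1 (log2 fold change −1.87 ± 0.07, SE; adjusted p = 2.84e-07, edgeR). Tpm4, the most abundant of them, went from 549, 601 and 603 FPKM to 262, 250 and 249 FPKM (−1.32), and Tpm2 from 130, 138 and 128 FPKM to 49.5, 65.3 and 55.3 FPKM (−1.33). Each of these shBmal1 values was below each shNC value of the same gene.

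Tpm3 ran the other way, at 99.5, 101 and 97.7 FPKM in shNC and 119, 141 and 164 FPKM in shBmal1. Its log2 fold change was 0.39 ± 0.10 (SE; adjusted p = 0.00968, edgeR), which was 0.01 with TPM and −0.10 with quantile-normalized FPKM, without a call in either, and 0.25 without shBmal1 replicate 3.

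Of the leiomodin and tropomodulin genes, 2 fell and 1 did not pass. Lmod1, leiomodin, a filament nucleator of smooth muscle (chromosome 13, 52147555 to 52190228, forward strand), fell from 25.9, 25.4 and 24.8 FPKM to 3.46, 3.56 and 2.31 FPKM, which left 11.4% of control by CPM (adjusted p = 1.12e-06, edgeR; log2 fold change −3.14 ± 0.16, SE). Tmod3, the widely expressed tropomodulin that caps pointed ends, fell from 55.8, 61.5 and 62.6 FPKM to 23.9, 28.5 and 23.6 FPKM (−1.35). Tmod1, the tropomodulin of muscle and red cells, was the gene that did not pass. It had 121, 110 and 138 counts in shNC and 0, 26 and 29 in shBmal1, with a log2 fold change of −0.85 ± 0.85 (SE; adjusted p = 0.397, edgeR). Its groups overlap, and it shares 7830 bases with Tstd2 on the opposite strand.

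Of the myosin II genes, both non-muscle heavy chains fell steeply. Myh9, heavy chain IIA, the main motor of stress fibres (chromosome 7, 118741110 to 118792625, reverse strand), stood at 294, 313 and 304 FPKM in shNC and 84.5, 57.4 and 58.3 FPKM in shBmal1 (log2 fold change −2.30 ± 0.15, SE; adjusted p = 4.39e-06, edgeR). Myh10, heavy chain IIB (chromosome 10, 55275411 to 55406732, forward strand), stood at 97.8, 96.2 and 96.8 FPKM and then at 11.3, 10.5 and 7.84 FPKM, leaving 9.44% of control by CPM (−3.41 ± 0.14, SE; adjusted p = 3.70e-07, edgeR). The shNC values of both genes were close together, and the shBmal1 values were far below them.

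The light chains split. Myl9, the regulatory light chain whose phosphorylation switches on contraction, fell from 108, 104 and 105 FPKM to 32.3, 30.1 and 19.6 FPKM (log2 fold change −2.07). Mylk, the kinase that phosphorylates it, fell from 4.00, 6.60 and 5.75 FPKM to 1.36, 1.31 and 1.51 FPKM (−2.07). Myl6, the essential light chain found in nearly all cells, was instead at 294, 306 and 310 FPKM in shNC and 441.0, 441 and 479 FPKM in shBmal1, with a log2 fold change of 0.47 ± 0.05 (SE; adjusted p = 0.000115, edgeR). It turned to −0.20 with quantile-normalized FPKM and was at 0.10, without a call, with TPM.

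Myh11, the smooth muscle heavy chain and the most specific marker of mature smooth muscle in the group, was low throughout. It had 0.561, 0.664 and 0.612 FPKM in shNC and 1.23, 0.903 and 0.915 FPKM in shBmal1. The increase of 0.62 ± 0.24 (SE; adjusted p = 0.0463, edgeR) was lost without any 1 of shNC replicates 1, 2 and 3 (adjusted p = 0.125, 0.0826 and 0.106) or shBmal1 replicate 1 (0.118), and with the replicate number as a block (0.113). With log2(TPM + 1) its log2 fold change was 0.15, without a call, a value that the added 1 also shrinks at this low level.

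All 7 genes of the calponin family and its neighbours fell, from slightly to almost completely. Tagln, transgelin or SM22, a classical SRF target (ENSRNOG00000017628, chromosome 8, 50222896 to 50231357, reverse strand), was the second most abundant contractile gene in shNC, at 1899, 1956 and 1844 FPKM, and was at 571, 551 and 527 FPKM in shBmal1 (log2 fold change −1.90 ± 0.06, SE; adjusted p = 1.35e-07, edgeR). Its annotated span overlaps Sidt2 on the same strand by 1019 bases. Cald1, caldesmon, which binds actin, myosin and tropomyosin, fell from 266, 286 and 286 FPKM to 45.6, 36.2 and 32.1 FPKM, to 12.6% of control by CPM (−2.99). Smtn, smoothelin, fell from 51.2, 55.3 and 49.7 FPKM to 17.1, 17.5 and 14.9 FPKM (−1.77).

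Within the calponins the smooth muscle form was close to the detection limit after knockdown. Cnn1 had 570, 753 and 552 counts in shNC and 17, 0 and 0 in shBmal1. A library with no count can still hold up to 0.257 or 0.263 CPM, scaled by total counts alone (3 counts in replicates 2 and 3, counting error only). Whether such zeros are sampled reads or come from the counting program is not known. Its fall was called (log2 fold change −4.69 ± 0.94, SE; adjusted p = 0.00240, edgeR), but its size rests on these few counts: it was −2.88 with log2(FPKM + 1), and without shBmal1 replicate 1 no count is left in the group and the fitted value was −11.8. Cnn2, a calponin of non-muscle cells, fell from 191, 188 and 190.2 FPKM to 119, 118 and 107 FPKM (−0.84). The whole annotated span of Cnn2, 5260 bases, overlaps Palm on the opposite strand, and Palm fell by 2.50 on the log2 scale. In shNC, Palm had 3361, 3064 and 2788 counts and Cnn2 6770, 6932 and 6227. Whether reads of Palm entered the counts of Cnn2 was not tested.

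The small differences of this family were less certain. Cnn3 moved by −0.23 ± 0.06 (SE; adjusted p = 0.00867, edgeR), from 108, 114 and 116 FPKM to 104, 107 and 99.4 FPKM, and lost its call with counts thinned to the smallest library (adjusted p = 0.160, edgeR). Tagln2, the transgelin of non-muscle cells, fell from 380.1, 378 and 387 FPKM to 280.4, 254 and 289 FPKM (−0.59). Each shBmal1 value of both genes was below each shNC value.

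**Figure D3:**
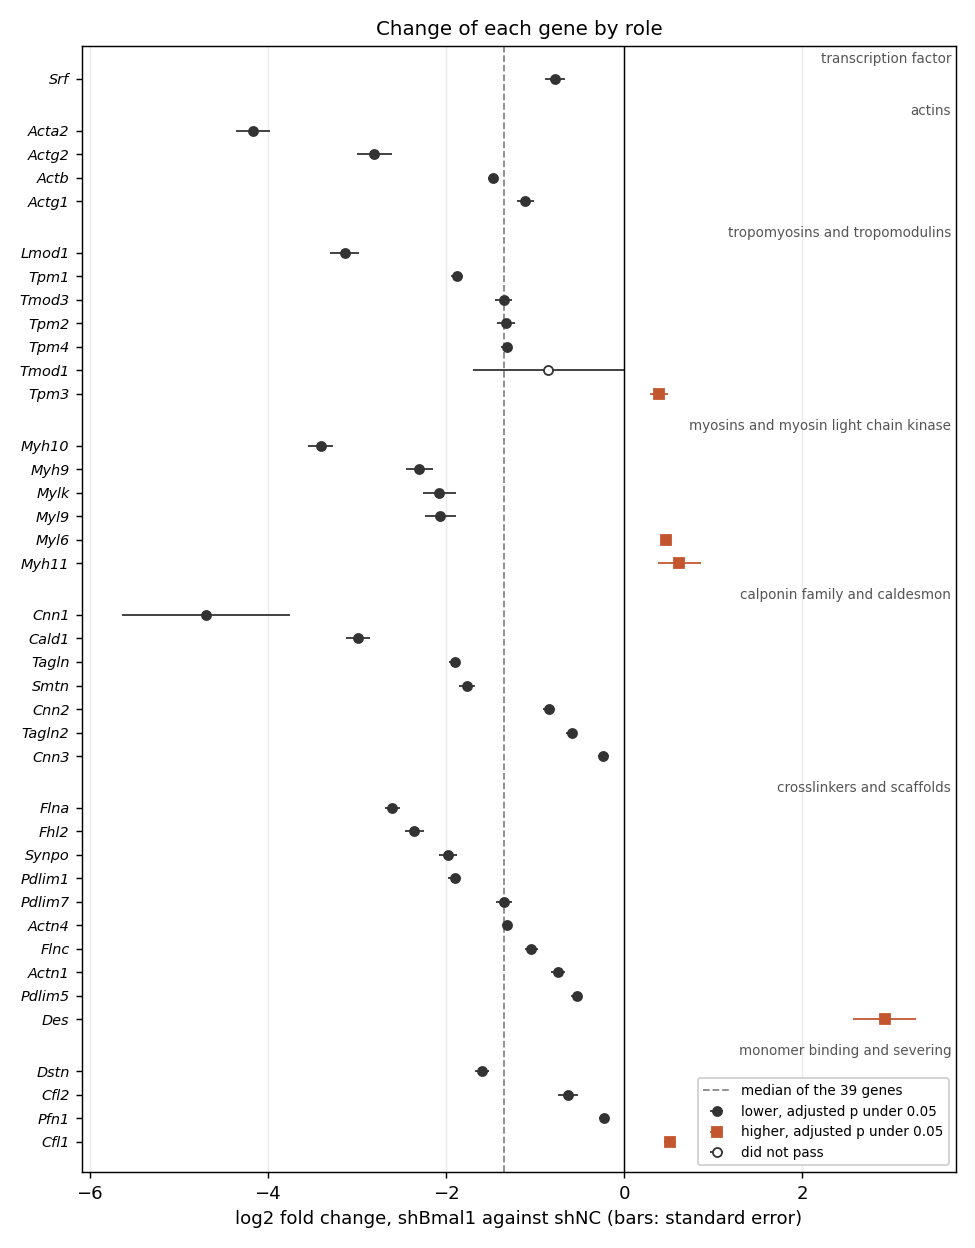
Log2 fold change of each of the 39 genes (shBmal1 against shNC) with its standard error, ordered by role. Cnn1 (−4.69), Acta2 (−4.16), the non-muscle heavy chain gene Myh10 (−3.41) and Lmod1 (−3.14) lie furthest to the left. To the right of 0 lie 5 genes. Of these, Des (2.93) and Myh11 (0.62) are also muscle forms, and Cfl1, Myl6 and Tpm3 turned below 0 with quantile-normalized FPKM.

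Of the 10 crosslinkers and scaffolds, 9 fell and Des rose. Flna, filamin A, which joins filaments into networks and ties them to integrins (chromosome X, 156463953 to 156487245, forward strand), went from 579, 596 and 566 FPKM to 115, 99.0 and 96.0 FPKM (log2 fold change −2.60 ± 0.08, SE; adjusted p = 1.37e-07, edgeR). Fhl2, a LIM protein that is an SRF target and binds SRF, fell from 153, 155 and 172 FPKM to 38.3, 33.8 and 29.4 FPKM (−2.35). Its promoters are those shown above with a box before each start. Synpo, synaptopodin, fell from 46.0, 42.2 and 42.0 FPKM to 13.3, 10.5 and 12.0 FPKM (−1.97).

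Flnc, the muscle-type filamin, fell less than Flna, from 63.0, 60.8 and 57.9 FPKM to 34.1, 31.2 and 30.0 FPKM (log2 fold change −1.04). The alpha-actinins, which bundle stress fibres, went down as well: Actn4 from 432, 438 and 433 FPKM to 190 FPKM, 183 FPKM and 192 FPKM (−1.32) and Actn1 from 233, 218 and 202 FPKM to 149, 131 and 142 FPKM (−0.74). Among the PDZ and LIM adaptors that sit on alpha-actinin, Pdlim1 fell from 349 ± 12.7 to 101 ± 7.54 FPKM (SD, n = 3 per group; −1.90), Pdlim7 from 78.6 ± 7.14 to 33.5 ± 0.90 FPKM (−1.34) and Pdlim5 from 125 ± 3.10 to 93.6 ± 3.62 FPKM (−0.53). The libraries of the 2 groups overlapped in none of these 6 genes.

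Des, desmin, the intermediate filament protein of muscle, was the gene that rose most. It was at 0.445, 1.17 and 0.717 FPKM in shNC and 6.66, 5.79 and 6.76 FPKM in shBmal1, with a log2 fold change of 2.93 ± 0.35 (SE; adjusted p = 0.000137, edgeR). Of 15 striated muscle markers found, some were present in 2 of the shBmal1 libraries: creatine kinase Ckm had 0, 190 and 169 counts in shBmal1 replicates 1, 2 and 3, against 0, 13 and 0 in shNC, and troponin Tnnt3 had 0, 125 and 154 against 75, 99 and 80. Summed over these markers, the level was 8.03 to 10.4 FPKM for shNC, and 3.79, 53.2 and 54.2 FPKM in the 3 shBmal1 libraries, with Actc1 at 0 throughout. Of the 4 tested, Tnnc2, a fast troponin gene, rose, with 8, 0 and 0 counts in shNC and 14, 25 and 29 in shBmal1. Des was as high in shBmal1 replicate 1, where Ckm and Tnnt3 had no count and Tnnc2 had 14, as in replicates 2 and 3. The part of muscle cells in the rise of Des was not tested.

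Of the 4 genes for proteins that bind monomers or sever filaments, 3 fell and 1 rose. Dstn, destrin or ADF, which severs filaments and binds monomers, fell from 330 FPKM, 384 FPKM and 372 FPKM to 135, 134 and 121 FPKM (log2 fold change −1.59 ± 0.08, SE; adjusted p = 1.02e-06, edgeR). Cfl2, the muscle cofilin, fell from 20.1, 24.3 and 24.5 FPKM to 15.9, 17.8 and 14.2 FPKM (−0.63). Pfn1, profilin, which loads monomers onto growing ends, moved from 824, 835 and 848 FPKM to 756, 749 and 811 FPKM (−0.23 ± 0.05, SE; adjusted p = 0.00498, edgeR), and lost its call with log2(FPKM + 1) (adjusted p = 0.141, limma) and with thinned counts (adjusted p = 0.0587, edgeR).

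Cfl1, the cofilin of non-muscle cells, was higher in shBmal1, at 417, 432 and 444 FPKM in shNC and 631, 635 and 731 FPKM in shBmal1 (log2 fold change 0.52 ± 0.07, SE; adjusted p = 0.000224, edgeR). It was at 0.14, without a call, with TPM and turned to −0.18 with quantile-normalized FPKM. With TPM or quantile-normalized FPKM, only Des of the 39 genes was called higher, while 33 and 35 were called lower. Over all 14342 tested genes, 4065 and 4840 were called higher and 6681 and 5586 lower in these 2 settings.

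As the ratio of 2 genes within a library needs no scaling, the composition of each family was compared directly. Acta2 made up 21.2, 21.7 and 20.8% of the summed FPKM of the 4 actins in shNC and 4.23, 4.38 and 2.44% in shBmal1. Actb rose from 50.5 ± 1.13% to 56.1 ± 1.97% of actin and Actg1 from 28.1 ± 1.55% to 40.1 ± 2.87% (SD, n = 3 per group), although both fell in level. The sum of the 4 actins was 5070 to 5242 FPKM in shNC and 1677 to 1903 FPKM in shBmal1.

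The other families shifted between their members as well. Tpm3 went from 10.1 ± 0.34% to 28.1 ± 3.63% of tropomyosin FPKM (SD, n = 3 per group) and Tpm4 from 59.2 ± 1.48% to 50.6 ± 3.24%. Myh10 went from 24.2 ± 0.72% to 12.9 ± 2.10% of the 3 heavy chains. Tagln2 went from 16.7 ± 0.58% to 33.3 ± 1.96% of the 2 transgelins.

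The largest shift in percentage points among these families was that of Cfl1. In fold many other shares moved more, among them those of Acta2, Myh11, Cnn1, Tpm3 and Dstn. Cfl1 went from 54.4, 51.4 and 52.9% of the ADF and cofilin FPKM to 80.7, 80.8 and 84.4%, while Dstn went from 44.3 ± 1.35% to 16.1 ± 1.86% (SD, n = 3 per group). The family sum, 767 to 841 FPKM in shNC and 782 to 866 FPKM in shBmal1, overlapped between the groups. Relative to Actb, Cfl1 stood at an FPKM ratio of 0.161, 0.161 and 0.178 in shNC, against 0.629, 0.649 and 0.705 after knockdown. Each share and ratio named in these paragraphs had groups that did not overlap, with p = 0.1 for each in exact permutation tests (two-sided), the lowest reachable.

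**Figure D4:**
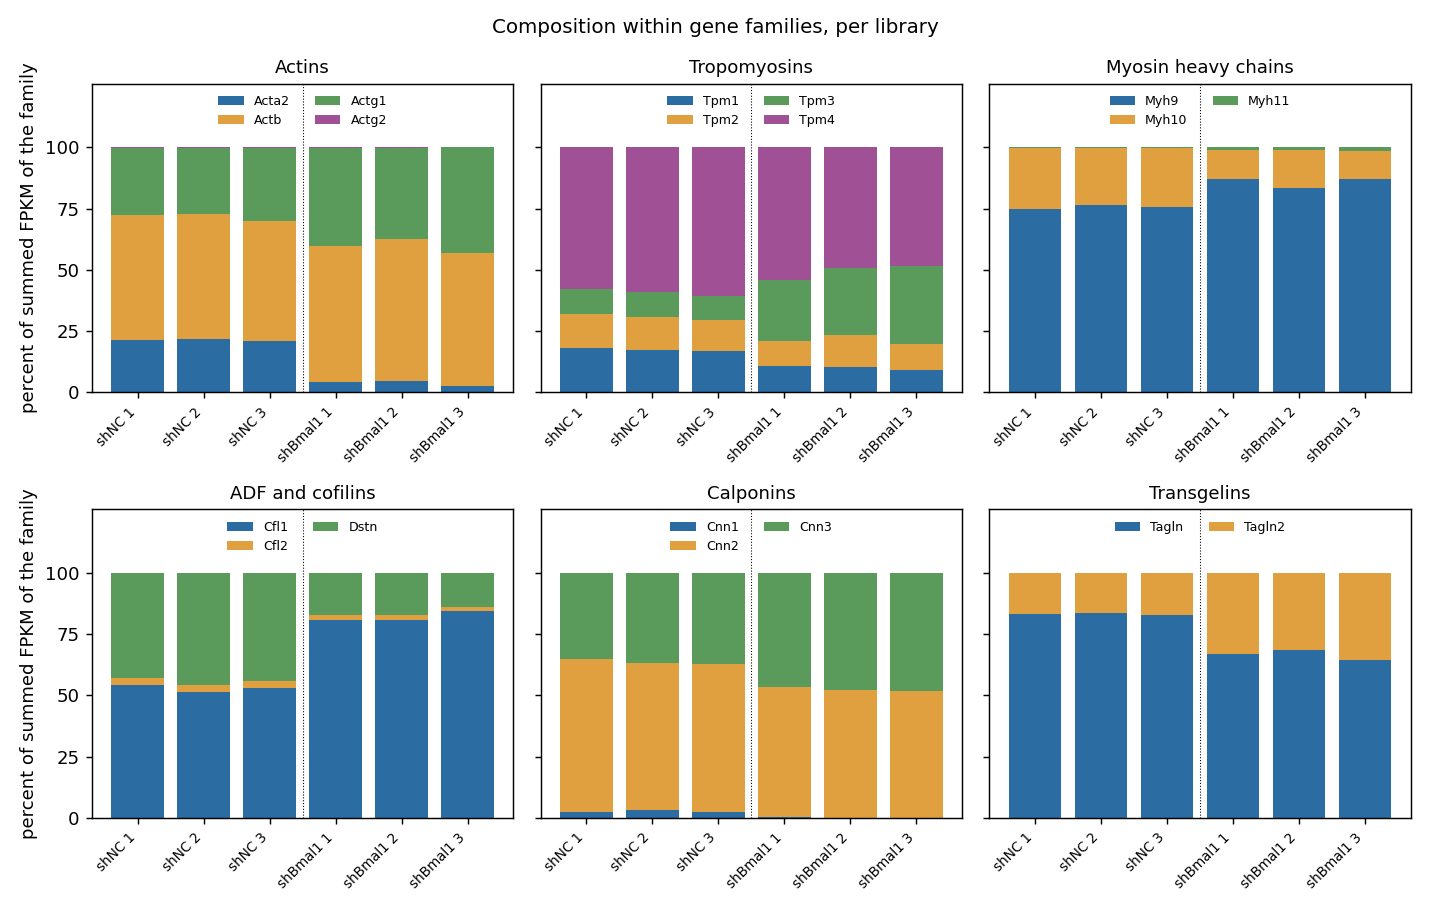
Share of each gene in the summed FPKM of its family, in percent, for the 6 libraries, with shNC left of the dotted line and shBmal1 right of it. Acta2 shrinks from about 21.2% to 3.69% of actin, and Cfl1 grows from 52.9% to 82.0% of the ADF and cofilin genes (means of 3 libraries).

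The genes around this group were read from 6 lists of 92 names, 85 of them tested, of which 52 fell (61.2%, beside 35.3% of all tested genes), 19 rose (22.4%, beside 36%) and 14 did not pass. Of these, 5 lists are described one by one below. Of the coactivators of SRF, Mrtfa, which encodes MRTF-A, fell from 122 ± 6.57 to 33.4 ± 6.07 CPM (SD, n = 3 per group; log2 fold change −1.87), and Myocd, myocardin, the smooth muscle coactivator of SRF, from 63.6 ± 4.54 to 16.7 ± 5.90 CPM (−1.94). Both belong to the sixth list, which is not described gene by gene here. In it 12 of 16 tested genes fell (75%, beside 35.3% of all tested genes), 1 rose (6.25%, beside 36%) and 3 did not pass.

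Other targets of MRTF and SRF went the same way as the group. Of 17 tested, 12 fell (70.6%, beside 35.3% of all tested genes), none rose (beside 36%) and 5 did not pass, with a median of −0.95. Those 5 were Zyx (0.15), Tes (0.08), Fermt2 (−0.01), Ankrd1 (−0.29) and Csrp2 (−0.95). Ccn2, a matricellular growth factor gene also driven by YAP, fell from 10891 ± 84.0 to 1451 ± 101 CPM (SD, n = 3 per group), and Ccn1 by 1.78 on the log2 scale. Fhl1, a LIM protein gene, fell from 938 ± 31.1 to 109 ± 4.64 CPM (−3.11) and Nexn, nexilin, by 2.75. This list was chosen with earlier results for several of its genes known.

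The immediate-early genes that SRF drives with TCF partners moved mostly the other way. Of 8 tested, 6 rose (75%, beside 36% of all tested genes) and 2 fell (25%, beside 35.3%), with a median of 1.30. With TPM, Fos was at 0.35 without a call, and the other genes that rose were still called higher. Fosb rose from 15.5 ± 0.47 to 96.1 ± 5.65 CPM (SD, n = 3 per group; log2 fold change 2.63 ± 0.08, SE; adjusted p = 1.15e-07, edgeR), Egr1 from 91.0 ± 9.48 to 399.5 ± 58.2 CPM (2.13) and Junb from 71.8 ± 5.30 to 247 ± 6.31 CPM (1.78). Nr4a1 (−2.55) and Egr3 (−3.93, at 1.01 ± 0.12 CPM in shNC) fell. Egr3 had means of 0.331 FPKM in shNC and 0.0251 FPKM in shBmal1. It was at −0.79 with log2(TPM + 1), where the added 1 shrinks changes at such levels. In the promoter table, 6 of 80 genes of the 6 lists have an exact CArG box, and these moved both ways: Egr1 and Egr2 rose, and Fhl1, Lima1, Myo1e and Rnd3 fell. The stretches of Egr1 (chr18:26736938-26737037, plus strand) and Fhl1 (chrX:139638356-139638455, plus strand) are shown to set beside those of Srf and Fhl2, with their boxes in capitals, and were picked after their values had been seen.
Egr1: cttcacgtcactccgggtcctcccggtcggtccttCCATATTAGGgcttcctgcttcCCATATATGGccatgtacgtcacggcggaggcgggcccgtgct
Fhl1: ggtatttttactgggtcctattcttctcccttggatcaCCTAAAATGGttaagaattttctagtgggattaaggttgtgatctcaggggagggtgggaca
The box CCATATATGG of the Actg1 promoter above (log2 fold change −1.11) is also one of the boxes of Egr1 (2.13).

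Machinery that builds branched actin, which supports lamellipodia rather than stress fibres, was split. Of 15 tested genes, 7 rose, 5 fell and 3 did not pass (Wasf1 at 0.49, Arpc4 at 0.15 and Arpc5l at −0.19), with a median of 0.33. These are 46.7% and 33.3% of the list, near the 36% and 35.3% of all tested genes. Subunits of the Arp2/3 complex led the rises, with Arpc3 going from 76.5 ± 0.79 to 208 ± 17.8 CPM (SD, n = 3 per group; 1.45), Arpc1b from 514 ± 21.0 to 1277 ± 121 CPM (1.31) and Arpc2 by 1.06 on the log2 scale. These 3 were still called higher with TPM and with quantile-normalized FPKM. The other 4 that rose were not called higher with TPM, where Arpc5 was at 0.09, Arpc1a at 0.07, Abi1 at −0.01 and Actr2 at −0.04. Brk1, Cttn, Wasf2, Wasl and Actr3 fell, by 0.73, 0.76, 0.46, 0.26 and 0.29. Among 17 tested capping, severing and monomer-binding genes, 13 fell (76.5%, beside 35.3% of all tested genes) and 3 rose (17.6%, beside 36%). The remaining 1 did not pass (Cap2 at −1.47), and the median was −0.52. Evl fell by 1.80, the severing protein gene Gsn, gelsolin, by 1.53, Coro1c by 1.18 and Coro1b by 0.66, and Capg (0.61), Cap1 (0.32) and Capzb (0.23) rose; with quantile-normalized FPKM, Cap1 was at −0.22, Capzb at −0.30 and Capg at 0.13 without a call, and with TPM none of the 3 was called.

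Of 12 tested genes of myosin regulation, 8 fell (66.7%, beside 35.3% of all tested genes) and 2 rose (16.7%, beside 36%). The other 2 did not pass (Myh14 at −0.48 and Myl12a at 0.06), and the median was −0.89. Myo1c, a membrane-linked myosin gene, fell from 1807 ± 40.7 to 666 ± 24.6 CPM (SD, n = 3 per group), Myo1e by 1.83, Myo10 by 1.18 and Ppp1cb, a catalytic subunit of myosin phosphatase, by 0.97 on the log2 scale. Ppp1r12a, the targeting subunit of that phosphatase, and Myl12b, a regulatory light chain gene of non-muscle cells, rose by 0.31 and 0.32, and were at −0.07 and −0.06 with TPM. With TPM, which shifts the median of all tested genes to −0.35, the genes of the 6 lists called higher numbered 9 and those called lower 59. Over all 14342 tested genes these were 4065 and 6681.

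**Figure D5:**
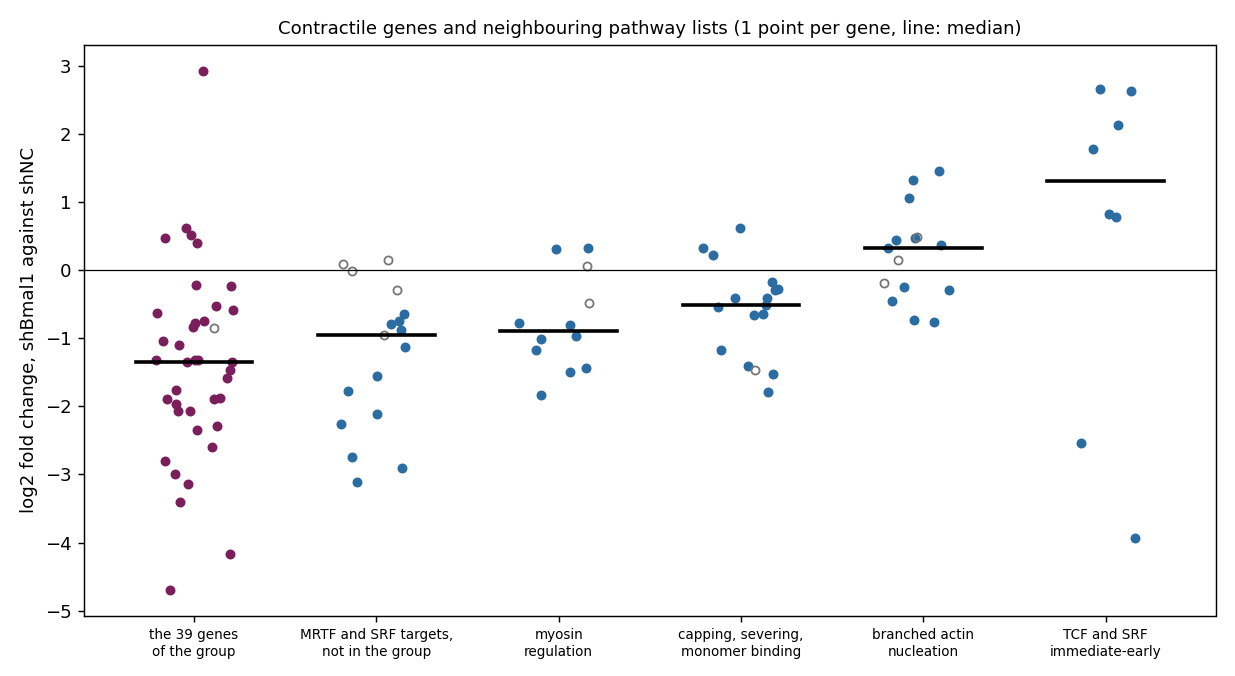
Log2 fold change (shBmal1 against shNC) of each tested gene of the contractile group and of 5 neighbouring lists, with the median as a line; open circles did not pass the test. Medians run from −1.34 for the contractile genes to 0.33 for branched actin nucleation and 1.30 for the immediate-early genes.

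Markers of other cell types were read beside these results. Of 7 pericyte and vascular smooth muscle markers, 6 fell (beside 35.3% of all tested genes) and 1 did not pass, and their summed level was 157 to 171 FPKM in shNC and 38.1 to 51.7 FPKM in shBmal1. Pdgfrb, the most abundant of them, went from 76.3 to 20.9 FPKM. Endothelial markers summed to 0.0766 to 0.218 FPKM in shNC and 1.32 to 2.08 FPKM in shBmal1, with none of the 5 found at 0 in all libraries. All 3 that were tested rose (beside 36% of all tested genes), on few counts: Tek by 3.47, Tie1 by 3.63 and Vwf by 4.06 on the log2 scale. Immune markers summed to 17.8 to 24.3 FPKM and 16.8 to 23.1 FPKM, most of it Cd14, which fell by 0.40 on the log2 scale, while Cd68 (2.81) and Lyz2 (2.25) rose from low levels. The part of these cells in the fall of Acta2, Tagln and the other contractile genes was not tested.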

How the data were processed

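RNA selected with poly-T beads was sequenced as paired-end reads, per the labels' protocols, whose wording also mentions adipose tissue and RNA without poly(A), so that it may not describe these libraries exactly. Per the submitters' processing notes, the tools were HISAT2 2.0.4, StringTie 1.3.4d, cutadapt 1.9, DESeq2 and edgeR, whose roles are not stated; the sources used here give no genome build, counting program or strand setting. The authors deposited whole-number counts for each gene and, per the file headers, FPKM, in which a gene with no count stands at 1e-04. Value columns without a sample numbered 0. Groups and replicate numbers came from the sample titles.

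The filter was filterByExpr with a count of at least 10 and a total of at least 15; genes kept were TMM-scaled and tested with edgeR 4.0.16 (R 4.3.3) without a replicate block, adjusting p-values over all 14342 tested genes. CPM are TMM-scaled, except for the limits given for 3 counts, which use total counts alone. By total counts, 3 counts equal 0.0603 to 0.0681 CPM per shNC library and 0.257 to 0.342 CPM per shBmal1 library. Alternatives used DESeq2 1.42.0, limma 3.58.1 and counts thinned to the smallest library. The limma fits took log2(FPKM + 1 or 0.1), log2(TPM + 1) and quantile-normalized log2(FPKM + 1). The procedure was tested on simulated counts with 200 genes set as changed, far fewer than were called in the data. It called 6.06%, 40.3% and 61.3% of genes changed by 0.5, 1 and 2 on the log2 scale, and 0.0144% of unchanged genes. Libraries of 1 group all differed beyond sampling noise (chi-square over its degrees of freedom, 10.8 to 23.5).

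The gene names and lists were chosen with earlier results of these data known, and 1 of the 6 neighbouring lists is given mainly as counts. All 39 genes are named, with up to 4 genes per neighbouring list by smallest p; Myocd, Sox9, Tnnc2, Egr2, Lima1, Actr2 and genes of an outcome (higher, lower or not passed) with at most 5 genes in their list were named after their values had been seen, as were the ADF and cofilin, calponin and transgelin shares. Same-numbered libraries did not deviate together (correlations −0.06, −0.01 and 0.02).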

Additional observations from a re-analysis of the deposited data

How the results depend on the processing

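The 33 contractile genes called lower were 28 to 35 over the alternatives, the lowest without the 50 most abundant genes, which removes 5 of the 39. Those called higher went from 5 to 1 with TPM and to 1 with quantile-normalized FPKM, and the genes of the 6 neighbouring lists called higher from 19 to 9 with TPM. With quantile-normalized FPKM, Myl6 reversed to −0.20, Tpm3 to −0.10 and Cfl1 to −0.18. The cause was not tested. With raw counts in place of FPKM, the change in the Acta2 share of actin was −18.4 against −17.5 percentage points, that of Actb 7.41 against 5.63, and that of Tpm3 among tropomyosins 26.5 against 18.0, since counts also weight by transcript length. Leaving out each library in turn gave 33 genes lower in every case and 4 or 5 higher. With a replicate block, 33 genes were lower and 4 higher, Myh11 losing its call (adjusted p = 0.113, edgeR). The median of the 39 genes minus that of all tested genes ran from −1.26 to −1.73. Depth limits Cnn1, Tmod1, Actg2, Myh11 and Des, which have few counts in at least 1 group.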

Other observations

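Some pericyte genes fell further than most of the contractile genes. Notch3, a receptor of mural cells, went from 135 ± 23.9 to 3.72 ± 0.79 CPM (SD, n = 3 per group; log2 fold change −5.17 ± 0.19, SE; adjusted p = 2.46e-07, edgeR), and Mcam, an adhesion molecule gene, from 54.2 ± 0.56 to 6.47 ± 3.85 CPM (−3.10). Abcc9, a potassium channel subunit gene, was at 33.3 ± 1.08 and 31.1 ± 2.80 CPM and did not pass (adjusted p = 0.386, edgeR).

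Acta1, the skeletal muscle actin gene, had 514, 545 and 397 counts in shNC and 25, 367 and 392 counts in shBmal1 replicates 1, 2 and 3, and did not pass (adjusted p = 0.200, edgeR). Myh4, a fast skeletal myosin gene, had no count in shNC and 3, 62 and 89 counts in shBmal1, and Myh6, a cardiac myosin gene, had 0, 172 and 0 counts in shNC and none in shBmal1. Cnn1 and Tmod1 likewise have no count in some shBmal1 libraries and 17 to 29 counts in others of like depth. These genes were picked after their values had been seen.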
